A study of Mus musculus with 6 samples.

Results

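The genes described here carry the symbols Cfap, Rsph and Drc followed by a number, which name cilia- and flagella-associated proteins, radial spoke proteins and subunits of the nexin-dynein regulatory complex. They were taken as the protein-coding entries of the deposited table whose symbol begins in that way, 42 of 55711 entries, with 31 Cfap, 8 Rsph and 3 Drc genes. The series holds RNA sequencing of 6 testis libraries from C57BL6 mice. Of these, 3 were labelled Tmc7 knockout and 3 were labelled Tmc7 heterozygote, so the controls carry 1 mutant allele. Tmc7 encodes a transmembrane channel-like protein, and the series title concerns the volume of elongated spermatids. The labels give neither the age of the mice nor the design of the allele.

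The motile axoneme is built of doublet microtubules around a central pair. Dynein arms on each doublet slide it along its neighbour, nexin links turn sliding into bending, and radial spokes carry signals between the central apparatus and the dynein arms. The Cfap family is a naming series rather than a family by descent, and it gathers proteins of almost every axonemal compartment. In the testis these genes are used by spermatids that are building the sperm tail, and mutations in several of them shorten or deform that tail.

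Depth was 17059486 to 19343479 reads per library, worked back from the deposited FPKM (fragments of a gene, scaled by its length and by the size of the library). The labels do not tell separate animals from repeat preparations, so every p-value here speaks of the spread between these libraries, which may be technical. Tmc7 itself was at 43.8, 41.9 and 35.1 FPKM in the knockout-labelled libraries and at 39.1, 37.7 and 37.2 FPKM in the controls, so its transcript level does not check the labels. Small RNA gene models took 0.0950%, 0.335% and 0.281% of the reads in the knockout-labelled libraries and 0.105%, 0.102% and 0.0997% in the controls, so knockout-labelled libraries 2 and 3 stand apart in that share. The 42 genes together held 0.696%, 0.699% and 0.707% of the reads in the knockout-labelled libraries and 0.689%, 0.689% and 0.716% in the controls.

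A sequence feature that the choice of symbols did not use was looked at first. RFX transcription factors, which switch on ciliary genes, bind the X-box, an inverted pair of short sites. The motif was searched on both strands as GTNNCC followed by GGNNAC with 0 to 3 bases between them, in windows from 250 bases before to 50 bases after each RefSeq transcription start (build GRCm38.p6). Of the 42 genes, 32 had such a window, and 7 of these 32 (21.9%) held the inverted pair, against 4.38% of 27025 genes with a window. The single site GTTGCC, which overlaps some of the pairs, was present in 12 of the 32 (37.5%) and in 14.1% of all genes with a window. These are matches of letters and not measured binding. The matches are shown because the 7 genes that held the pair belong to several axonemal compartments, while most members with a window lacked it. Cfap126 had several windows, and only the one furthest along the gene held its pair. The Cfap43 window lies inside the deposited Cfap43 gene (chr19:47737561-47919299, minus strand) and not at its 5′ end. Capitals mark the inverted pair, each sequence is read 5′ to 3′ on the strand of its gene, and Cfap298 held 2 pairs.
Cfap126 (chr1:171122956-171122983, plus strand): gttcaagGTATCCATGGCTACttctcag
Cfap206 (chr4:34730209-34730236, minus strand): gcgttccGTTTCCACGGTTACgcgactg
Cfap298 (chr16:90935017-90935044, minus strand): ggttttgGTTGCCCGGGCAACagctact
Cfap298 (chr16:90934898-90934924, minus strand): ttgactGTTGCCCCTGGCAACagccac
Cfap43 (chr19:47837414-47837440, minus strand): gttcccgGTCTCCAGGATACaggtgta
Cfap58 (chr19:47937646-47937672, plus strand): cgtggcgGTTGCCAGGCGACcgaagac
Cfap77 (chr2:29055282-29055309, minus strand): gcgtcttGTCACCAAGGAGACgggacgt
Rsph9 (chr17:46144186-46144213, minus strand): gctcaggGTCTCCATGGAGACagcttct

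The members were strongly transcribed in these testes, in every library. Of the 42 genes, 35 averaged at least 10 FPKM over the 6 libraries and 5 averaged at least 100 FPKM. The median member stood at the 90.9th percentile of the 19168 genes tested, those that averaged 0.5 FPKM or more over the 6 libraries. Of the 42, 40 passed that filter, and the lowest of them, Cfap77, stood at the 59.8th percentile. These percentiles are over genes of every biotype. The median level was 38.1 FPKM for the tested members, 5.60 FPKM for the protein-coding genes tested and 3.665 FPKM for all genes tested. Cfap77, at 5.62 FPKM, thus lay near the protein-coding median. The members not tested, Rsph4a and Cfap97d2, averaged 0.141 and 0.368 FPKM. Levels within the axoneme's parts spanned a wide range, from 5.62 FPKM for Cfap77 to 621 FPKM for Rsph1 among the tested genes.

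**Figure D1:**
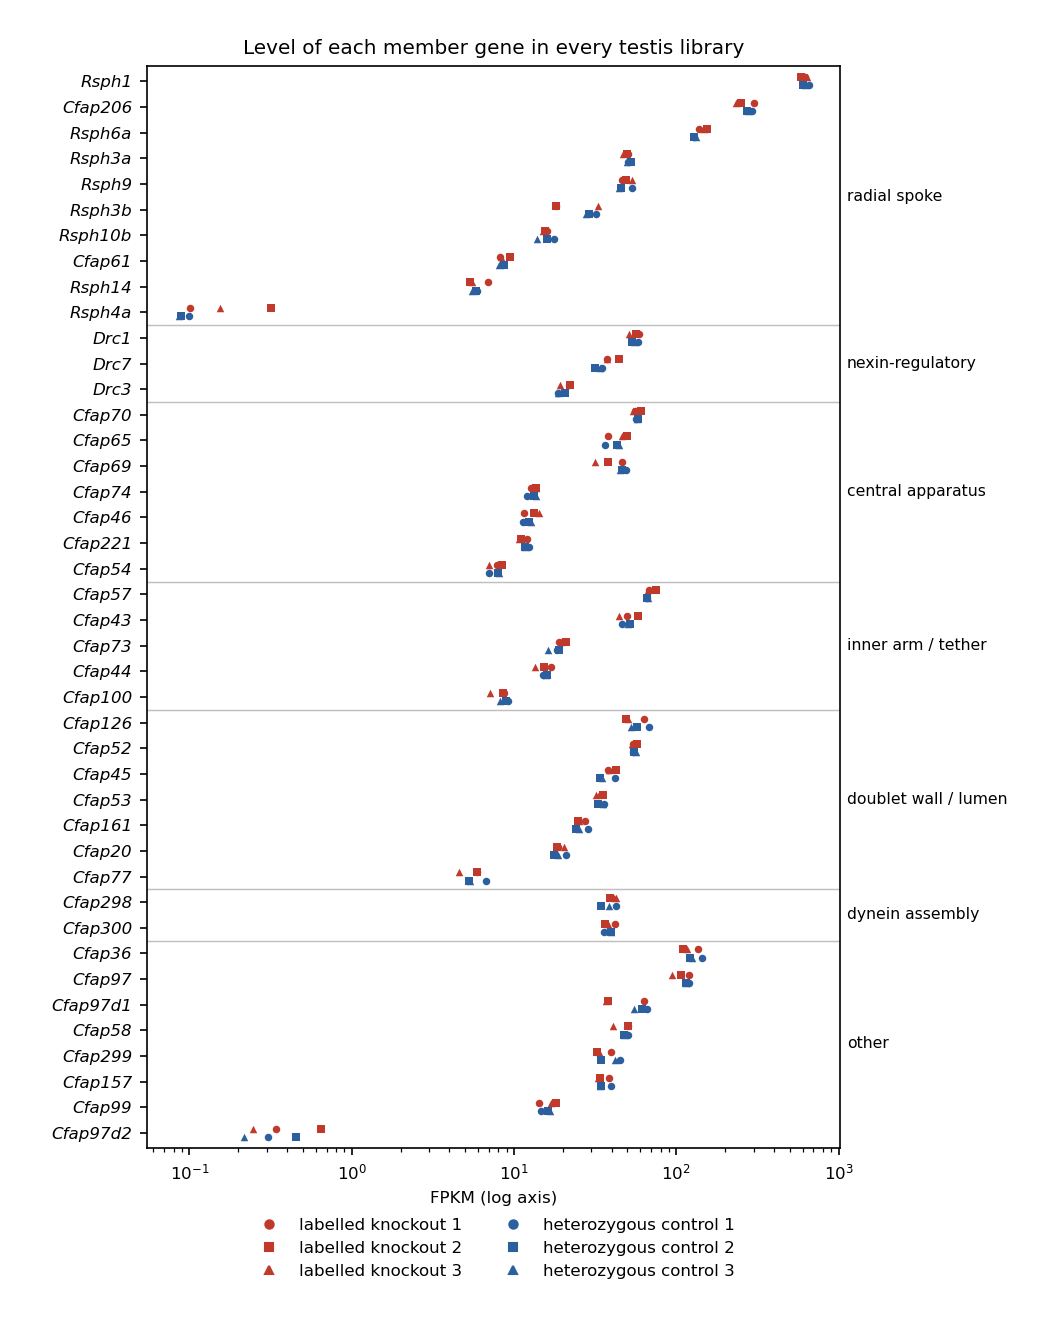
FPKM of each of the 42 genes on a log axis, 1 point per library, with knockout-labelled libraries in red above controls in blue and genes grouped by axonemal compartment. The points of a gene lie close together for most genes, Rsph3b and Cfap97d1 spread more widely, and Rsph4a and Cfap97d2 lie below 1 FPKM.

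No member passed the test for a difference between the groups. By limma on log2(FPKM + 1), with Benjamini-Hochberg adjustment over the 19168 genes, 0 of the 40 members passed an adjusted p of 0.05, and 0.0% of all genes tested passed. The adjusted p-values of the members lay between 0.868 and 0.996. At an unadjusted p under 0.05 there was 1 member of 40, Drc7, against 3.87% of all genes tested (1.48% with a higher mean and 2.38% with a lower one in the knockout-labelled libraries). By limma-voom on reads worked back from FPKM, 0 of 41 members passed, with 1 of 20556 genes called in all, and 2 members had an unadjusted p under 0.05, against 3.80% of those genes. The median difference of the members was -0.010 on the log2(FPKM + 1) scale, against -0.0058 over all genes tested. Over all genes tested, mean values were higher in the knockout-labelled libraries for 9315 and lower for 9853. Over the protein-coding genes tested they were higher for 7246 and lower for 6231. Among the 40 members they were higher for 18 and lower for 22. That balance turned round to 27 higher and 13 lower with quantile normalization (median 0.028, against 0.012 over all genes) and to 26 higher and 14 lower without knockout-labelled library 3 (median 0.017). The differences were small, with 25 of 40 (62.5%) below 0.1 in size. That share was 44.5% of all genes tested, 49.9% of the protein-coding genes tested and 46.4% of the 7712 genes at or above the level of Cfap77. The median standard error was 0.103 for the members and 0.136 for all genes. It was 0.123 for the protein-coding genes tested and 0.118 for the 7712 genes at or above the level of Cfap77. For every one of the 40 members the 95% interval lay within a log2 difference of 1 in either direction, reaching from -0.93 for Rsph3b to 0.47 for Drc7. That held for 93.1% of all genes tested. It also held for 13193 of the 13477 protein-coding genes tested and for 7410 of the 7712 at or above the level of Cfap77. The log2 scale with a pseudocount of 1 FPKM understates changes of low genes, which matters little at the levels of these 40.

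**Figure D2:**
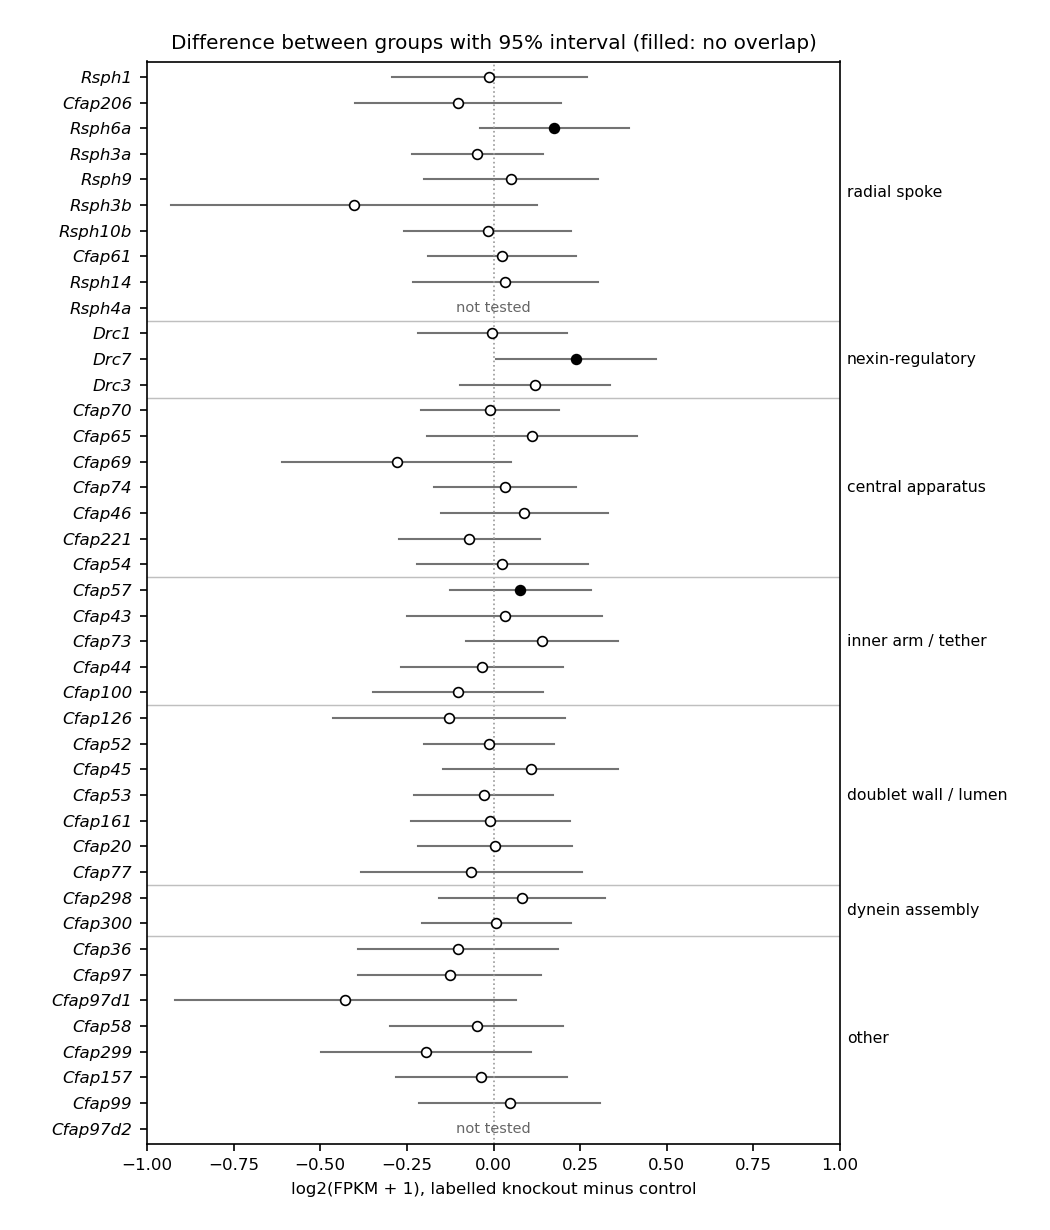
Difference in log2(FPKM + 1), knockout-labelled minus control, for each gene with its 95% interval from limma, by compartment. Filled points are the 3 tested genes whose groups do not overlap, Rsph6a, Drc7 and Cfap57, and the intervals are widest for Rsph3b and Cfap97d1.

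Radial spoke genes held the highest levels of all. Rsph1, a subunit of the spoke head (ENSMUSG00000024033, chr17:31255019-31277356, minus strand, GRCm38), was at 624, 588 and 643 FPKM in the knockout-labelled libraries and at 653, 602 and 617 FPKM in the controls. The groups overlapped, and the log2 difference was -0.012 (SE 0.12). Cfap206, placed at the base of a radial spoke in ciliates, was at 302, 252 and 235 FPKM in the knockout-labelled libraries and at 294, 272 and 277 FPKM in the controls. Its knockout-labelled libraries 2 and 3 were the lowest of the 6 and library 1 the highest. The log2 difference was -0.10, and it was -0.21 without library 1 and -0.025 without library 3 of that label.

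Rsph6a and Rsph4a encode related spoke head proteins, Rsph6a of the sperm flagellum and Rsph4a of motile cilia. Rsph6a (ENSMUSG00000040866, chr7:19054690-19074447, plus strand) was at 138, 154 and 148 FPKM in the knockout-labelled libraries and at 128, 129 and 132 FPKM in the controls. All 3 knockout-labelled values lay above all control values, but the log2 difference of 0.18 (SE 0.091) did not pass (limma adjusted p = 0.868). Rsph4a had 7, 20 and 11 reads in the knockout-labelled libraries and 6, 6 and 6 reads in the controls. With counts this low it was not tested, and its level was below that of Rsph6a in every library.

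Rsph9, another subunit of the spoke head, was at 46.4, 48.8 and 53.0 FPKM in the knockout-labelled libraries and at 53.7, 45.6 and 44.1 FPKM in the controls. Rsph10b, with MORN repeats, was at 15.98, 15.56 and 15 FPKM in the knockout-labelled libraries and at 17.53, 15.88 and 13.91 FPKM in the controls, and 15.7% of its exon bases are overlapped by other genes, most by Gm42421 on the same strand. Rsph14, with armadillo repeats, was at 6.92, 5.38 and 5.48 FPKM in the knockout-labelled libraries and at 5.89, 5.83 and 5.48 FPKM in the controls. The groups overlapped for all 3 of these genes. Cfap61, a subunit of the calmodulin- and spoke-associated complex, averaged 8.65 ± 0.647 and 8.49 ± 0.307 FPKM (knockout-labelled and control, SD, n = 3 each).

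Rsph3a and Rsph3b are mouse copies of the gene of a spoke stalk protein, and they lie in the proximal part of chromosome 17. Rsph3b (ENSMUSG00000023806, chr17:6904413-6948682, minus strand) was at 18.05, 18.13 and 32.94 FPKM in the knockout-labelled libraries and at 32.0, 29.2 and 27.7 FPKM in the controls. Knockout-labelled libraries 1 and 2 were thus the lowest of the 6 and library 3 was the highest, so the groups overlapped. This was the widest spread of any tested member, 1.82-fold from the lowest to the highest library. Its log2 difference was -0.40 (SE 0.22, limma adjusted p = 0.868), -0.26 and -0.27 without knockout-labelled libraries 1 and 2 in turn, and -0.68 without library 3 (limma adjusted p = 0.583, 1 and 0.851). The gene had 1063, 979 and 2000 reads in the knockout-labelled libraries and 1640, 1682 and 1657 reads in the controls, so it does not rest on a few reads.

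Rsph3a (ENSMUSG00000073471, chr17:7945614-7979824, plus strand) did not follow Rsph3b. It was at 50.68, 49.95 and 46.97 FPKM in the knockout-labelled libraries and at 50.7, 52.2 and 49.6 FPKM in the controls. The copies are hard to tell apart, since other genes hold 77.8% of the 31-base words found in Rsph3b transcripts, Rsph3a alone 58.5%, and likewise 63% of the words of Rsph3a. How reads matching both copies were counted is unstated in the sources used here, so both values are uncertain. Tagap1, the nearest tested protein-coding gene on one side of Rsph3b, was at 14.6, 13.2 and 18.7 FPKM in the knockout-labelled libraries and at 18.1, 17.2 and 16.3 FPKM in the controls, again with libraries 1 and 2 lowest and library 3 highest. Ezr, the nearest on the other side, did not have that order, being at 4.61, 8.15 and 5.96 FPKM in the knockout-labelled libraries and at 4.27, 5.17 and 5.44 FPKM in the controls. These neighbours were chosen after the values of Rsph3b had been seen.

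**Figure D3:**
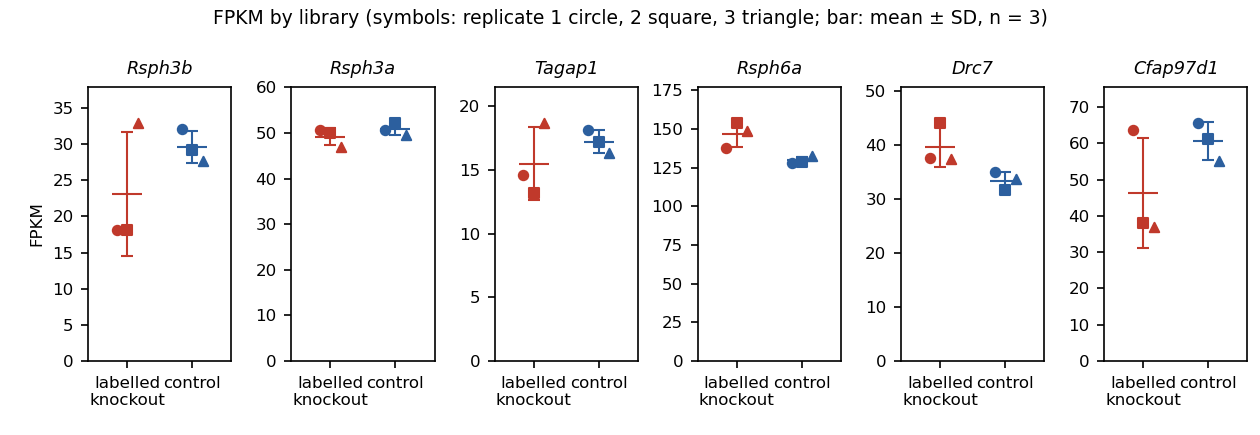
FPKM of Rsph3b, its copy Rsph3a, its neighbour Tagap1, and Rsph6a, Drc7 and Cfap97d1 in each library, with the mean and SD (n = 3) of each group and knockout-labelled libraries on the left. Rsph3b is at 18.05 and 18.13 FPKM in knockout-labelled libraries 1 and 2 and at 32.9 FPKM in library 3, and Cfap97d1 is low in libraries 2 and 3.

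The nexin-dynein regulatory complex joins neighbouring doublets, and 1 of its 3 genes here, Drc7, was the member with an unadjusted p under 0.05. Drc7, a subunit needed for sperm tails in mice (ENSMUSG00000031786, chr8:95055103-95078141, plus strand), was at 37.6, 44.2 and 37.5 FPKM in the knockout-labelled libraries and at 35.0, 31.7 and 33.8 FPKM in the controls. All knockout-labelled values lay above all control values. The log2 difference was 0.24, its SE 0.098 and its 95% interval ran from 0.0075 to 0.47 (unadjusted p = 0.0446 and adjusted p = 0.868 by limma). With no trend in the fit, without knockout-labelled library 2 or without any 1 of the 3 control libraries, 0 members had an unadjusted p under 0.05.

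Drc3 was at 21.9, 22.1 and 19.2 FPKM in the knockout-labelled libraries and at 18.7, 20.5 and 18.8 FPKM in the controls, with overlap. Drc1, which anchors the complex, was at 58.7, 56.4 and 50.9 FPKM in the knockout-labelled libraries and at 58.0, 53.4 and 54.7 FPKM in the controls, with a log2 difference of -0.0032. The 3 subunits thus had differences of different sizes, and none passed.

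The central apparatus members gave 4 higher and 3 lower means. Cfap70 was at 55.5, 60.7 and 54.1 FPKM in the knockout-labelled libraries and at 56.3, 57.9 and 57.4 FPKM in the controls. Cfap65 was at 38.1, 49.6 and 46.4 FPKM in the knockout-labelled libraries and at 36.4, 43.1 and 44.1 FPKM in the controls. Both are needed for normal sperm tails, and in both the groups overlapped.

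Cfap69, whose loss in mice gives short and malformed sperm tails, was at 46.5, 37.9 and 31.7 FPKM in the knockout-labelled libraries and at 48.7, 46.3 and 44.9 FPKM in the controls. Its knockout-labelled libraries 2 and 3 were below all controls, while library 1 lay within them. The log2 difference was -0.28 (SE 0.14), -0.42 without knockout-labelled library 1 and -0.15 without library 3 (limma adjusted p = 0.868, 0.166 and 0.999). The subunits of the C1 projection, Cfap46, Cfap54, Cfap74 and Cfap221, averaged 7.80 to 13.3 FPKM in the knockout-labelled libraries and 7.64 to 12.97 FPKM in the controls, with log2 differences from -0.070 to 0.089.

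Among genes of the inner dynein arms and their tether, Cfap57 was at 67.4, 75.2 and 67.4 FPKM in the knockout-labelled libraries and at 66.1, 65.7 and 66.8 FPKM in the controls. The groups did not overlap, yet the log2 difference was 0.078 (SE 0.086). Rsph6a, Drc7 and Cfap57 were the 3 members of 40 with no overlap, all higher in the knockout-labelled libraries, where 4.15% of all genes tested were separated in that direction, 4.41% in the other and 8.56% in either. Cfap73, of the modifier of inner arms complex, was at 18.89, 20.97 and 19.49 FPKM in the knockout-labelled libraries and at 18.4, 18.9 and 16.3 FPKM in the controls, and shares 8.47% of its exon bases with Ddx54 on the other strand.

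Cfap43, a tether subunit, was at 49.96, 58.5 and 44.1 FPKM in the knockout-labelled libraries and at 46.2, 51.6 and 50.4 FPKM in the controls. Knockout-labelled libraries gave both its highest and its lowest value. The deposited length of Cfap43 was 9955 bases, against 6355 exon bases in GENCODE M21, so its FPKM level depends on the gene model used. Cfap44, the partner of Cfap43, averaged 15.2 ± 1.66 and 15.6 ± 0.406 FPKM, and Cfap100 averaged 8.12 ± 0.871 and 8.77 ± 0.465 FPKM (knockout-labelled and control, SD, n = 3 each).

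Proteins of the doublet wall and lumen stiffen the microtubule from within. Cfap126 was at 63.6, 48.7 and 50.1 FPKM in the knockout-labelled libraries and at 67.95, 56.98 and 52.7 FPKM in the controls. Cfap52 was the steadiest of the tested members, at 54.1, 57.1 and 53.3 FPKM in the knockout-labelled libraries and at 54.4, 54.9 and 56.6 FPKM in the controls, a range of 1.07-fold. Cfap45 was at 37.8, 42.6 and 38.7 FPKM in the knockout-labelled libraries and at 41.7, 33.9 and 35.0 FPKM in the controls. The groups overlapped for each of the 7 genes of this compartment, and the log2 differences of Cfap53, Cfap161, Cfap20 and Cfap77 lay between -0.064 and 0.0043.

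The dynein assembly factors, which act in the cytoplasm before the arms are loaded, had similar levels. Cfap298 was at 40.2, 39.0 and 42.3 FPKM in the knockout-labelled libraries and at 42.3, 34.2 and 38.6 FPKM in the controls, but 53.6% of its exon bases are overlapped by exons of other genes, most by Gm49727 on the other strand, and whether counting used strand is unstated in the sources used here. Cfap300 was at 41.6, 36.3 and 38.0 FPKM in the knockout-labelled libraries and at 36.0, 39.4 and 39.8 FPKM in the controls.

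Of the 8 remaining Cfap genes, 7 were tested, and 6 of the 7 had lower means in the knockout-labelled libraries. Over all genes tested, 9853 of 19168 had lower means. Cfap97d1, needed for the upkeep of the sperm axoneme in mice (ENSMUSG00000010841, chr11:101984279-101992264, plus strand), was at 63.7, 38.1 and 36.9 FPKM in the knockout-labelled libraries and at 65.7, 61.2 and 55.2 FPKM in the controls. Library 1 lay among the controls, and libraries 2 and 3 lay below all of them. The log2 difference was the largest in size of the 40, -0.43 (SE 0.21, limma adjusted p = 0.868). It was -0.68 without knockout-labelled library 1 (limma adjusted p = 0.1399) and -0.29 without library 3.

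Its relative Cfap97 was at 121, 106 and 94.3 FPKM in the knockout-labelled libraries and at 120, 114.5 and 114.9 FPKM in the controls. Its log2 difference was -0.13, and it was -0.21 without knockout-labelled library 1 and -0.039 without library 3. Cfap97d2, the third of these relatives, had 31, 54 and 23 reads in the knockout-labelled libraries and 24, 40 and 20 reads in the controls. Cfap36, which binds the small GTPase ARL3, was at 137, 109.7 and 117 FPKM in the knockout-labelled libraries and at 144, 121 and 125 FPKM in the controls. Cfap299 was at 39.4, 32.7 and 33.5 FPKM in the knockout-labelled libraries and at 45.2, 34.5 and 42.1 FPKM in the controls, and 19.1% of its exon bases are overlapped by E030032P16Rik on the same strand. The groups overlapped for these genes. Cfap58, Cfap157 and Cfap99 had log2 differences between -0.048 and 0.047.

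The 7 genes with an inverted X-box pair, whose sites are printed above, belonged to several compartments and had log2 differences from -0.13 for Cfap126 to 0.082 for Cfap298. Their groups overlapped in every case.

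Partners of the spokes and the nexin-regulatory complex that carry other symbols were read from the same fit. The list held 22 genes, among them Maats1 and Wdr66, the mouse genes for CFAP91 and CFAP251, and 21 were tested. None passed, 9 had higher and 12 lower means in the knockout-labelled libraries, and the median log2 difference was -0.030. Efcab2, the gene for DRC8, was at 17.6, 15.3 and 13.9 FPKM in the knockout-labelled libraries and at 19.6, 17.1 and 19.3 FPKM in the controls (limma adjusted p = 0.868). Nme5, a spoke protein with nucleoside kinase domains, was at 60.2, 45.1 and 52.7 FPKM in the knockout-labelled libraries and at 64.5, 58.4 and 59.0 FPKM in the controls. Iqub, another spoke protein, was at 56.4, 47.8 and 40.6 FPKM in the knockout-labelled libraries and at 59.4, 53.7 and 53.5 FPKM in the controls. In all 3 the groups overlapped, with knockout-labelled library 1 inside the range of the controls. Ropn1l, of the spoke neck, had the highest level of this list, with 867 ± 114 FPKM in the knockout-labelled libraries and 973 ± 97.3 FPKM in the controls (SD, n = 3 each).

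The libraries were not alike in these genes. Knockout-labelled library 3 had the lowest value of the 6 for 16 of the 40 tested members (40%), against 23.0% of all genes tested, and knockout-labelled library 2 had the highest for 14 (35.0%, against 21.4%). Among the controls, library 1 had the highest value for 15 members (37.5%, against 19.5% of all genes tested). Control library 2 had it for 1 member (2.5%, against 11.6%) and control library 3 for 0 (against 13.2%). The mean level of the 40 members, in log2(FPKM + 1) centred on the 6 libraries, was 0.028, 0.0014 and -0.062 in the knockout-labelled libraries and 0.055, -0.011 and -0.012 in the controls.

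Every marker list for cells of the testis had a wider range between libraries than the members. The members' level is a mean over 40 genes and those of the lists over 7 to 20 genes. Averaging more genes, some higher and some lower, can by itself narrow a range, so the ranges are not directly comparable. The late spermatid list had 20 of 20 genes with lower means in the knockout-labelled libraries, 0 of them called, and a median log2 difference of -0.35. Its level was 0.31, -0.26 and -0.54 in the knockout-labelled libraries and 0.43, 0.23 and -0.16 in the controls, so libraries 2 and 3 of the knockout label, where Cfap97d1 and Cfap69 were low, were also lowest here. In both groups this level fell from library 1 to library 3, and so did the values of Cfap97d1 and Cfap69. These genes were picked for this comparison after their values were seen. Rsph3b went the other way in the knockout-labelled libraries, at 18.05, 18.13 and 32.94 FPKM. The mean level of the 40 members fell from library 1 to library 3 in both groups. In knockout-labelled library 2 it was 0.0014, above control libraries 2 and 3 (-0.011 and -0.012). The summed FPKM of the list ranged from 10980 to 20340 in the knockout-labelled libraries and from 14150 to 23600 in the controls. The round spermatid list was at 0.14, -0.18 and -0.17 in the knockout-labelled libraries and at 0.18, 0.052 and -0.023 in the controls. The Sertoli list was at -0.17, 0.19 and 0.34 in the knockout-labelled libraries and at -0.21, -0.15 and 0.00042 in the controls, with 11 of 12 tested genes higher and 0 called. The leukocyte list was at -0.15, 0.21 and 0.32 in the knockout-labelled libraries and at -0.25, -0.14 and 0.0088 in the controls, with 9 of 9 tested genes higher and 0 called. In both groups the Sertoli and leukocyte lists rose from library 1 to library 3. The part of these shifts in the values of Cfap97d1, Cfap69 and the other members was not tested, and in a bulk sample fewer cells of a type cannot be told apart from less RNA per cell.

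**Figure D4:**
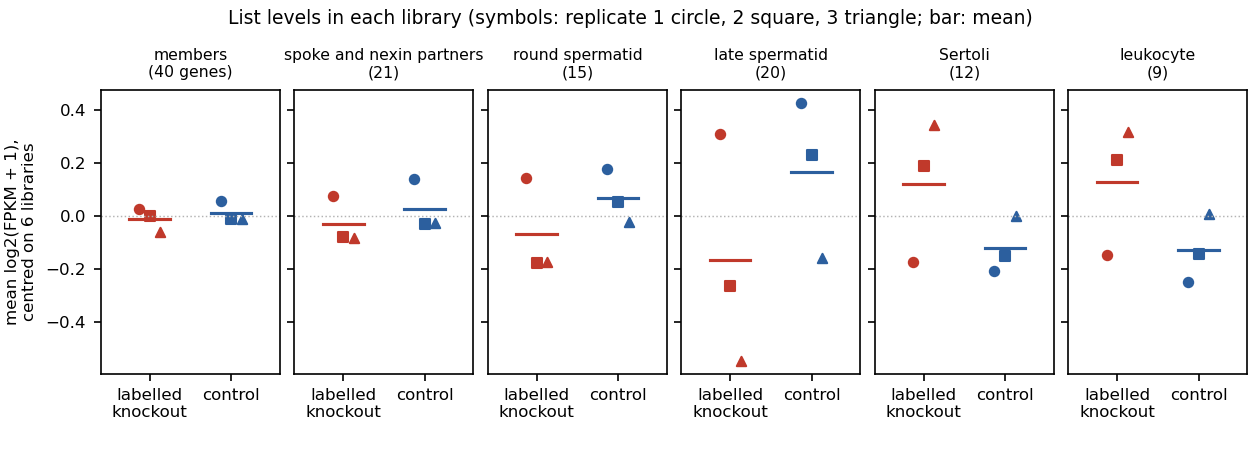
Mean log2(FPKM + 1) of the tested genes of each list, centred on the 6 libraries, in each library, with the mean of each group as a bar and knockout-labelled libraries on the left. The members (40 genes) stay between -0.062 and 0.055, while the late spermatid list (20 genes) runs from -0.54 to 0.43.

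Multiciliated cells, found in ducts next to the testis, also use many of these genes. Of their 10 listed markers 6 were tested, with 2 higher and 4 lower means and 0 called, and the summed FPKM ranged from 169.6 to 203.7 in the knockout-labelled libraries and from 173.5 to 216.0 in the controls. Deup1, Dynlrb2 and Foxj1 made up most of that sum. Deup1 was at 81.3, 73.0 and 56.1 FPKM in the knockout-labelled libraries and at 87.4, 75.6 and 66.4 FPKM in the controls. Dynlrb2 was at 77.8, 55.6 and 65.4 FPKM in the knockout-labelled libraries and at 78.5, 60.8 and 63.2 FPKM in the controls. Mcidas, which commits cells to this fate, was at 0, 0.0243 and 0.0216 FPKM in the knockout-labelled libraries and at 0.0256, 0 and 0 FPKM in the controls. Foxj1, a ciliary transcription factor, was at 36.7, 58.7 and 41.3 FPKM in the knockout-labelled libraries and at 42.6, 37.6 and 36.8 FPKM in the controls. Rfx3, Cdc20b and Ccno averaged 3.75, 1.91 and 1.56 FPKM in the knockout-labelled libraries and 3.82, 2.025 and 1.25 FPKM in the controls. Trp73, Gmnc and Myb averaged 0.166, 0.0318 and 0.0119 FPKM in the knockout-labelled libraries and 0.133, 0.02655 and 0.00648 FPKM in the controls. Spermatogonium, spermatocyte, Leydig and myoid lists had median log2 differences of 0.087, -0.11, -0.20 and 0.30, with 0 genes called in each. The spermatocyte list ran from -0.14 to 0.066 and the spermatogonium list from -0.089 to 0.15 between libraries. The Leydig list ran from -0.55 in knockout-labelled library 3 to 0.20 in knockout-labelled library 1. The myoid list ran from -0.14 in control library 2 to 0.34 in knockout-labelled library 2.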

How the data were processed

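RNA of 6 testis libraries, 3 per group, was extracted with Trizol and sequenced after SMARTER library preparation, per the labels' protocols. Values are FPKM as deposited by the authors, in 1 table with each gene's length, position and biotype. Builds GRCm38 and mm10 come from the submitters' processing notes. Aligner, counter, annotation release, strand and filters are unstated in the sources used here. Multiplied by gene length, 100% of the FPKM above 0 came within 0.01 of whole reads, which gave reads per gene. Of the 42 members, 39 had identical coordinates in GENCODE M21, the exceptions being Rsph1, Cfap43 and Cfap58.

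For genes averaging 0.5 FPKM or more, limma 3.58.1 (R 4.3.3) was run on log2(FPKM + 1) (trend, group as the only term, two-sided, adjusted over all genes). Members and lists were chosen with earlier results of these data known, and lists were given no test. Genes given with values in every library were the 2 highest of each compartment, the 5 of smallest p in each direction, members without overlap, every Rsph and Drc gene, and 3 partners of smallest p. Ropn1l, Tagap1, Ezr and the multiciliated markers, and the other members and partners given as group means, were named after their values were seen. Sharing was counted as distinct 31-base words of GENCODE M21 transcripts, either strand. Promoter windows are from RefSeq. Alternatives covered the pseudocount, filter, quantile scaling, replicate block, trend, limma-voom on recovered reads and each library left out.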

Additional observations from a re-analysis of the deposited data

How the results depend on the processing

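Under the alternatives run, 0 members and 0 partner genes were called in each, and over all genes 0 were called except 1 by limma-voom, Srp54b, which is no member and was named after its value was seen. The number of members with a lower mean, 22 of 40, was 13 with quantile normalization and 14 to 24 without single libraries, 14 being without knockout-labelled library 3. The members' median, -0.010, ranged from -0.037 to 0.017 without single libraries, and moved by less than the spread between libraries (0.048) in each alternative. Of 364 values of 26 named members, 332 kept their direction and 32 changed sign. The smallest adjusted p among the 364 was 0.1399 (Cfap97d1 without knockout-labelled library 1). Without that library 3491 genes had an unadjusted p under 0.05, against 741 with all libraries, and 4 members against 1. With quantile normalization the sign changed for Cfap52 (0.035), Cfap70 (0.040), Drc1 (0.046), Rsph1 (0.057) and Rsph3a (0.013). Without both knockout-labelled libraries 2 and 3, a setting chosen after the data were seen, which assumes that the lone library varies like the controls, it changed for Cfap126 (0.11), Cfap206 (0.10), Cfap36 (0.081), Cfap65 (-0.10), Cfap97 (0.050), Cfap97d1 (0.071), Drc1 (0.083), Rsph1 (0.0020), Rsph10b (0.023) and Rsph9 (-0.037). Without single libraries it changed for Cfap300 (-0.045 to 0.051), Cfap43 (-0.071 to 0.13), Cfap52 (-0.043 to 0.0067), Cfap70 (-0.060 to 0.022), Drc1 (-0.046 to 0.055), Rsph1 (-0.041 to 0.023), Rsph10b (-0.099 to 0.057), Rsph14 (-0.065 to 0.090) and Rsph9 (-0.0038 to 0.14). Other members kept their sign without single libraries but moved by over 1.5 times: Cfap126 (-0.25 to -0.027), Cfap206 (-0.21 to -0.025), Cfap298 (0.0035 to 0.15), Cfap299 (-0.30 to -0.11), Cfap36 (-0.19 to -0.027), Cfap45 (0.052 to 0.20), Cfap57 (0.026 to 0.10), Cfap65 (0.027 to 0.22), Cfap69 (-0.42 to -0.15), Cfap73 (0.078 to 0.18), Cfap97 (-0.21 to -0.039), Cfap97d1 (-0.68 to -0.29), Drc3 (0.085 to 0.18), Rsph3a (-0.068 to -0.014) and Rsph3b (-0.68 to -0.26). The cause was not tested. The labels do not say that replicate numbers pair libraries, so the main fit did not take the numbers as pairs. Deviations of same-numbered libraries correlated at 0.29, 0.041 and 0.20, and those of differently numbered libraries at -0.32 to 0.17. Knockout-labelled libraries 1 and 3 correlated best with the control of the same number. Whether the numbers mark a shared batch was not tested. With the replicate number as a block, 1411 genes had an unadjusted p under 0.05, against 741 without it. In that fit 0 genes and 0 members were called, and 2 members had an unadjusted p under 0.05. Knockout-labelled library 2 correlated best with control library 3. Depth limits Rsph4a and Cfap97d2, with means of 9.33 and 32.0 reads.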
